A study of Homo sapiens with 132 samples.

Results

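In MKN1 gastric cancer cells, 45 protein-coding genes were higher 4 h after addition of epidermal growth factor (EGF). By the measure defined next, they were close to or below the level of untreated cells after 24 h. They were chosen from these data by a rule on L, the log2 ratio of (mean CPM with EGF + 1) to (mean CPM of untreated cells + 1), where CPM is the read count scaled to the library total and each mean covers 3 libraries. Members had L of at least 0.8 at 4 h and below 0.3 at 24 h, and 45 of 19674 protein-coding genes met both limits. Another 128 genes met the 4 h limit and had L of 0.3 or more at 24 h, and these are called sustained genes here. Because the EGF and untreated libraries of MKN1 chose the members, every value that uses those libraries is given as a description without a test.

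RNA was sequenced from 4 established gastric cancer lines derived from metastatic sites, with 3 libraries for each treatment and time and 132 libraries in all. MKN1 and Hs746T cells were left untreated or received EGF (5 ng/ml), the EGF receptor antibody cetuximab (Cet, 1 µg/ml), EGF with cetuximab, the HER2 antibody trastuzumab (Tra, 5 µg/ml), the irreversible EGFR and HER2 kinase inhibitor afatinib (Afa, 0.5 µM), or trastuzumab with afatinib. MKN7 and NCI-N87 cells received the trastuzumab and afatinib treatments and had untreated controls. All cells were grown with foetal calf serum, and the controls were untreated rather than given the afatinib solvent, so that afatinib and its solvent cannot be told apart. Library totals lay between 25832557 and 69434151 counts, with a median of 50725775, and 3 counts corresponded to 0.116 CPM in the shallowest library and 0.0432 CPM in the deepest. The keratin KRT8 had a median of 11223 CPM in MKN1, 9626 CPM in NCI-N87, 2947 CPM in MKN7 and 349 CPM in Hs746T, where KRT19 was at 25.6 CPM. The epithelial cadherin CDH1 had a median of 225 CPM in MKN7 and 269 CPM in NCI-N87, but only 1.90 CPM in MKN1 and 0.79 CPM in Hs746T. The labels do not say that replicates came from separate cultures, so p-values measure the spread between these libraries, which may be technical.

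EGF binding activates the EGF receptor (EGFR), which drives the Ras-MAPK cascade and switches on immediate early genes, many of which encode transcription factors, without need for new protein. These are followed by delayed genes that include inhibitors of the same cascade, such as Sprouty proteins and dual-specificity phosphatases. EGFR and its relative HER2 are common therapeutic targets in gastric cancer.

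L at 4 h had a median of 1.02 over the 45 genes and ranged from 0.81 to 1.77. At 24 h the median was 0.05, with a range from -1.41 to 0.29, and 21 genes were below 0. These values are scaled to the library total. On the scale normalized by the trimmed mean of M-values (TMM), which edgeR uses, the fitted EGF difference at 24 h had a median of 0.27. It ranged from -1.69 to 3.05, with 30 genes above 0 and 15 below. Scaling by library size in place of TMM moved the median of all genes by -0.20 for this difference. The 1 CPM added in L shrinks the ratio where counts are few. SERPINA12, with L of 0.196 at 24 h, had 2, 1 and 0 counts untreated and 18, 3 and 5 counts with EGF at that time. Just inside the 4 h limit were KIAA0040 (L 0.806), SEMA4B (0.816) and SH3TC1 (0.834), and just outside it were SEMA3B (0.787), BTBD19 (0.781) and RNF223 (0.760). At the 24 h limit, NTNG1 (0.293), BHLHE40 (0.275) and AGPAT4 (0.270) were inside, whereas ZFP36L1 (0.303), NET1 (0.304) and FAM83B (0.308) were outside. The lowest 24 h values belonged to the kinase gene MAST4 (-1.41), the zinc finger gene EGR2 (-1.14) and the kinase gene AATK (-0.85). EGR2 had 281, 68 and 99 counts untreated and 32, 33 and 62 counts with EGF at 24 h. Replicate 1 was thus far above the other untreated libraries. Membership depended on the scaling, since 31 of the 45 genes also met the rule with TMM-normalized CPM, which found 39 genes.

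**Figure D1:**
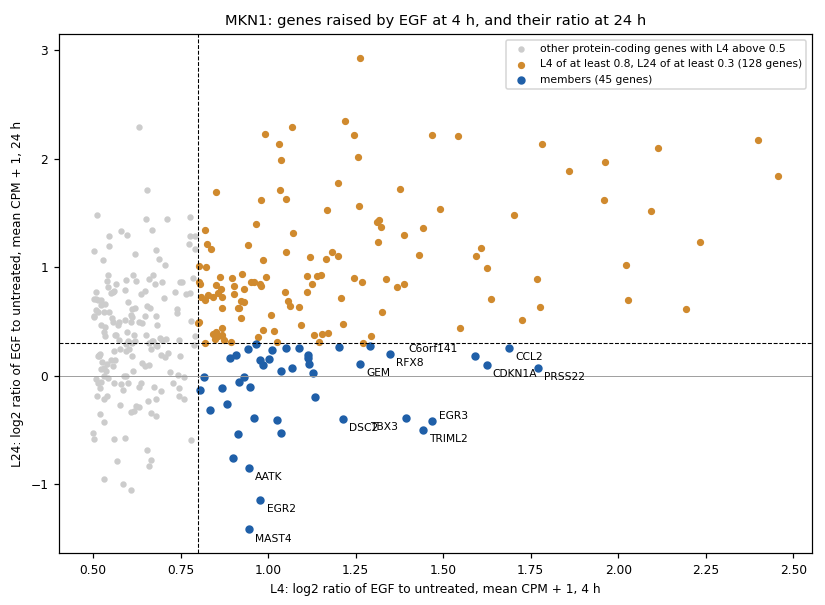
L at 4 h (x axis) and L at 24 h (y axis), both log2 ratios of EGF to untreated (mean CPM + 1) in MKN1, for protein-coding genes. Genes with low L at 4 h are not drawn, and the 45 members and the 128 sustained genes are marked. The members lie to the right of the 4 h limit of 0.8 and below the 24 h limit of 0.3, and 21 of them lie below 0 at 24 h on this scale, against 15 in the fit with TMM scaling.

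The 45 genes were sorted by role, after they were known, into 10 genes of transcription and chromatin, 6 inhibitors of signalling or the cell cycle, 6 ligands, receptors and guidance molecules, 5 kinase and GTPase regulator genes, 6 enzyme and serpin genes, 6 genes of adhesion, tetraspan and channel proteins, and 6 others. Among the transcription genes, EGR3 (ENSG00000179388), an immediate early zinc finger factor, had 3.24, 2.54 and 4.54 CPM in the untreated and 10.9, 9.83 and 13.1 CPM in the EGF libraries at 4 h. At 24 h, EGR3 had 8.78, 2.36 and 5.94 CPM without and 3.61, 2.43 and 6.01 CPM with EGF. The groups were apart at 4 h and overlapped at 24 h, when the untreated libraries were also far from each other.

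TBX3 (ENSG00000135111), a T-box repressor, had 30.6, 28.5 and 29.4 CPM untreated and 96.2, 75.3 and 66.1 CPM with EGF at 4 h. At 24 h, TBX3 had 38.0, 34.0 and 31.4 CPM untreated and 27.6, 24.9 and 25.9 CPM with EGF. All 3 EGF libraries thus lay above the untreated ones at 4 h and below them at 24 h. BHLHE40 (ENSG00000134107), a basic helix-loop-helix repressor, had 31.2, 32.9 and 37.5 CPM untreated and 83.6, 83.6 and 85.8 CPM with EGF at 4 h. At 24 h, BHLHE40 had 49.0, 42.1 and 62.2 CPM untreated and 54.8, 61.1 and 70.2 CPM with EGF, which overlap. RFX8 (ENSG00000196460), of the RFX DNA-binding family, had 1.90, 1.42 and 1.92 CPM untreated and 7.59, 4.35 and 6.04 CPM with EGF at 4 h, but 1.42, 1.59 and 1.27 CPM against 2.05, 1.51 and 1.83 CPM at 24 h.

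Of the inhibitors, CDKN1A (ENSG00000124762), which encodes the cyclin-dependent kinase inhibitor p21, had 32.6, 40.3 and 60.4 CPM untreated and 118, 134 and 165 CPM with EGF at 4 h. At 24 h, the CDKN1A values were 29.8, 33.6 and 33.7 CPM untreated and 30.6, 36.9 and 36.8 CPM with EGF, so that the groups overlapped. GEM (ENSG00000164949), a small GTPase of the RGK family, had 3.18, 3.40 and 3.36 CPM untreated and 9.06, 9.19 and 9.82 CPM with EGF at 4 h. At 24 h, GEM was back at 3.92, 4.12 and 4.12 CPM with EGF, between the untreated values of 3.61, 4.34 and 3.13 CPM.

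The chemokine gene CCL2 (ENSG00000108691), whose product attracts monocytes, had 7.36, 7.49 and 4.74 CPM untreated and 28.9, 25.7 and 15.3 CPM with EGF at 4 h. At 24 h, CCL2 was low in both groups, with 0.946, 1.29 and 0.648 CPM untreated and 1.54, 1.43 and 1.06 CPM with EGF. In CCL2, the untreated level itself therefore differed between the times, and in 10 of the 45 genes the untreated mean moved by over 0.5 on the log2(CPM + 1) scale. How many of all genes moved as far was not computed. The serine protease gene PRSS22 (ENSG00000005001) had the largest L at 4 h, with 0.705, 1.51 and 2.28 CPM untreated and 6.24, 6.39 and 9.97 CPM with EGF. At 24 h, PRSS22 had 0.586, 0.480 and 1.00 CPM untreated and 0.429, 0.785 and 1.12 CPM with EGF. AGPAT4 (ENSG00000026652), an acyltransferase gene of phospholipid synthesis, had 14.7, 12.1 and 14.3 CPM untreated and 36.9, 30.8 and 31.0 CPM with EGF at 4 h, and overlapped at 24 h with 16.4, 14.3 and 11.99 CPM against 18.2, 15.9 and 18.02 CPM.

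The desmosomal cadherin gene DSC2 (ENSG00000134755) had 0.886, 0.814 and 2.20 CPM untreated and 3.13, 3.25 and 6.65 CPM with EGF at 4 h. At 24 h, DSC2 had 1.31, 2.03 and 2.26 CPM untreated and 0.897, 0.825 and 1.81 CPM with EGF, and in every condition at 4 h replicate 3 was the highest. TRIML2 (ENSG00000179046), of the tripartite motif-like family, had 13.2, 12.9 and 15.3 CPM untreated and 43.7, 35.4 and 38.8 CPM with EGF at 4 h. At 24 h, all 3 TRIML2 values with EGF (7.54, 8.09 and 10.1 CPM) were below the untreated ones (14.03, 13.3 and 10.2 CPM). C6orf141 (ENSG00000197261) had 5.35, 5.07 and 10.0 CPM untreated and 21.6, 17.5 and 28.5 CPM with EGF at 4 h, and 5.07, 4.88 and 8.40 CPM against 6.59, 4.85 and 9.87 CPM at 24 h.

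Over the 45 genes, the median of the mean levels in MKN1 at 4 h was 8.88 CPM untreated, 23.3 CPM with EGF, 12.7 CPM with EGF and cetuximab, 7.86 CPM with cetuximab and 7.08 CPM with afatinib. At 24 h it was 11.3 CPM untreated and 8.30 CPM with EGF, although gene by gene 24 of the 45 had L of 0 or more at that time. EGF libraries at 4 h lay above all untreated ones in 45 of 45 genes, as the rule largely fixed, and 24 h EGF libraries lay below all 4 h EGF libraries in 44. In 24 genes the mean with EGF at 24 h was below the untreated mean at 4 h. The counts of 44 and 24 also rest on the libraries that chose the members, and the shares over all genes were not computed. With cetuximab beside EGF at 4 h, all 45 genes had a lower fitted value than with EGF alone (median log2 fold change -0.66). A higher value than in untreated cells was fitted for 44 of them (median 0.60). Both comparisons use the libraries that chose the members, so a place between EGF and untreated libraries was partly fixed by the rule. For these comparisons, too, the shares over all genes were not computed.

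**Figure D2:**
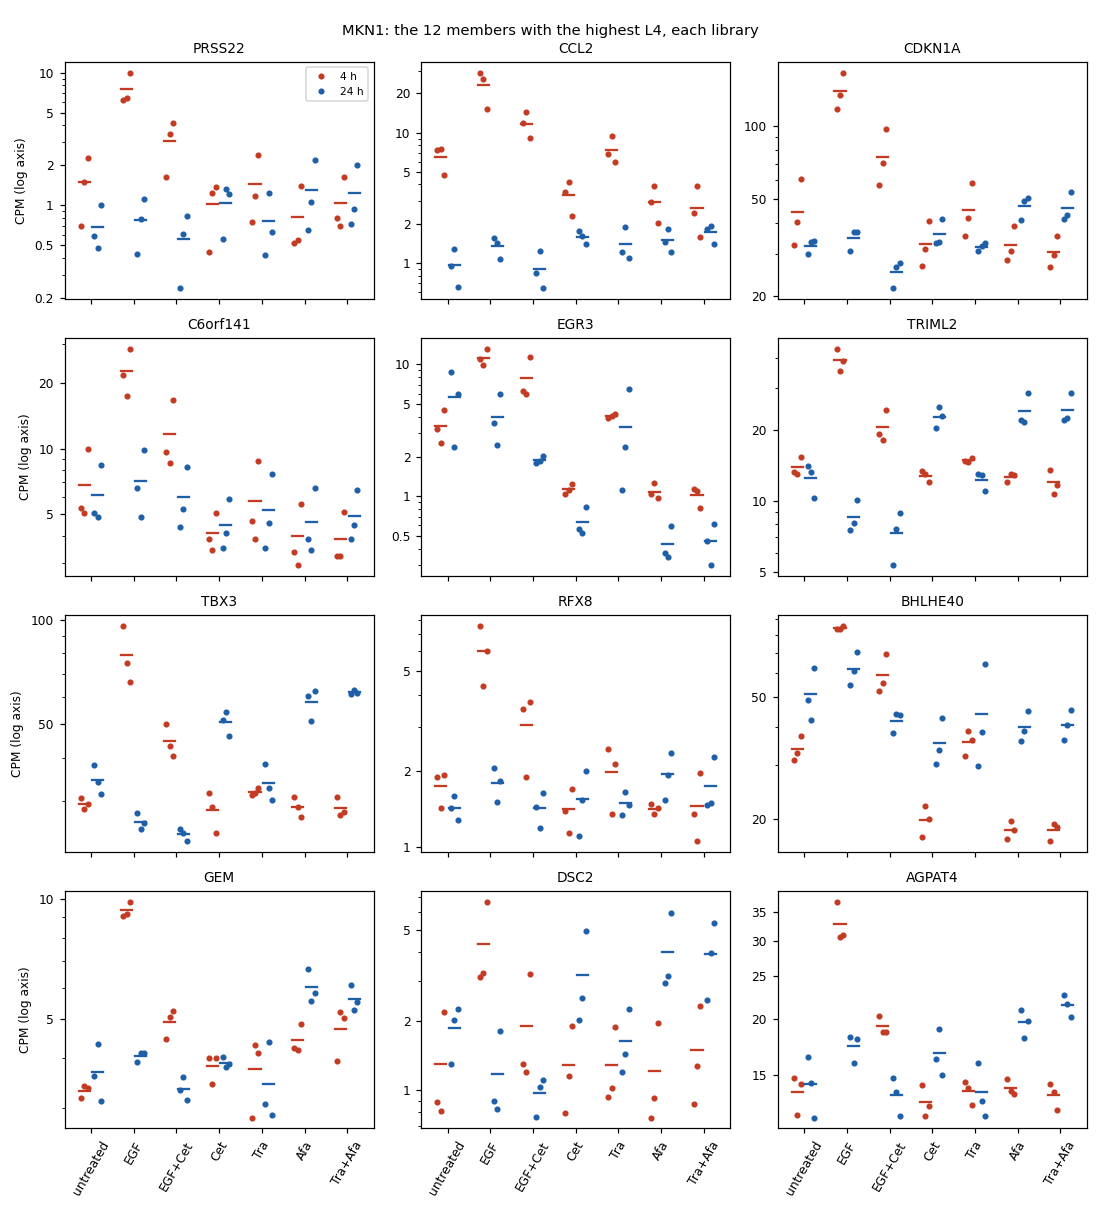
CPM (log axis) of the 12 members with the largest L at 4 h in MKN1, by treatment, at 4 h and at 24 h, with a point for each library and a bar at the mean of 3. At 4 h the EGF libraries of CDKN1A lie between 118 and 165 CPM, above the untreated 32.6 to 60.4 CPM, and at 24 h they lie at 30.6 to 36.9 CPM.

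By their position in GENCODE 29 (GRCh38), the genes had a median span of 29.2 kb, against 35.9 kb over 14649 protein-coding genes, and 24.4% of them were shorter than 10 kb, against 17.6%. PRSS22 lies on the minus strand of chromosome 16 (2852727 to 2858170) and CCL2 on the plus strand of chromosome 17 (34255218 to 34257203). TRPV3 and PFKFB4 overlap another protein-coding gene on the same strand (SPATA22 and UCN2), and HAS3, AATK, TMC6 and TMC8 overlap one on the opposite strand, TMC6 and TMC8 each other. Values of these 6 genes are uncertain to that extent, and the use of strand in counting is not given in the sources used here. In the RefSeq table of promoters (GRCh38.p14, 250 bases before to 50 after a start), 35 of the 45 genes matched, with 60 windows, and PRSS22, CCL2, EGR3, TBX3, RFX8, GEM, KIAA1551, TRIB1, TMC8 and PTK2B did not. Shown here are the 250 bases before the start for the member with the largest L at 4 h that holds each motif there, and the EGR2 window with a CArG box, the site of serum response factor in immediate early genes. Capitals mark the match to the AP-1 motif in C6orf141 (chr6:49550418-49550667, plus strand), to NF-kB in KDM6B (chr17:7839667-7839916, plus strand), to EGR in SPRY2 (chr13:80341127-80341376, minus strand), which holds the motif on both strands, and to the CArG box in KLF7 (chr2:207167247-207167496, minus strand) and EGR2 (chr10:62816367-62816616, minus strand).
C6orf141: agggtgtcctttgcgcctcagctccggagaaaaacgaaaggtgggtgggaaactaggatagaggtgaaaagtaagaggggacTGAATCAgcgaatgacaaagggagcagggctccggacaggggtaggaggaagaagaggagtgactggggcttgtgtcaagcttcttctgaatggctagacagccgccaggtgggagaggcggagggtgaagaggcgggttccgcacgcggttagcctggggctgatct
KDM6B: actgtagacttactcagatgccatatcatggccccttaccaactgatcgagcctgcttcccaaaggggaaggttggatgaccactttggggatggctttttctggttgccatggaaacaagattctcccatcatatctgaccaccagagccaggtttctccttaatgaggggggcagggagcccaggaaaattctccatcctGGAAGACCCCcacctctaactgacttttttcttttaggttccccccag
SPRY2: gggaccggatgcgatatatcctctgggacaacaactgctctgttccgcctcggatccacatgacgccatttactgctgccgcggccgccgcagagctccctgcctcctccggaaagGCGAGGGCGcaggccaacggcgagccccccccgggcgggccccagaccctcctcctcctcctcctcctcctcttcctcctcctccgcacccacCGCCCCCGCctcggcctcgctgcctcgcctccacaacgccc
KLF7: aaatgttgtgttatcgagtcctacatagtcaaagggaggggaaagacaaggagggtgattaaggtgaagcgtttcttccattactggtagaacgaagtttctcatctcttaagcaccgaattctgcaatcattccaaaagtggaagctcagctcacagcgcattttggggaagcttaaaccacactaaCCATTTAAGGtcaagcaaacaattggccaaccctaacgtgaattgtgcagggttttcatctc
EGR2: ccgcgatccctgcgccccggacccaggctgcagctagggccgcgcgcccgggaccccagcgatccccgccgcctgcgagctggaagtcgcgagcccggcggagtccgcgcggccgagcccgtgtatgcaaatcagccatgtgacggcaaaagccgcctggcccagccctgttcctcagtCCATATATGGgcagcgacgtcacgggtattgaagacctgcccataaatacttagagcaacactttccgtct

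The motifs were searched on both strands as letters, TGANTCA for AP-1, TGACGTCA for the cyclic AMP response element and GCGNGGGCG for EGR, and by the usual patterns of the CArG box and NF-kB. AP-1 letters were in 6 of 60 windows (10%, 95% Clopper-Pearson interval 3.76 to 20.5) and in 6.21% of 20947 protein-coding windows. EGR letters were in 15% against 12.4%, the CArG box in 3.33% against 1.26% and NF-kB in 18.3% (9.52 to 30.4) against 12.8%. The cyclic AMP element was in 0 of 60 windows, an interval that reaches 5.96%, against 2.24% of all windows. Each share over all windows lay inside the interval of the members, so no difference was detectable at this number of windows, some of which belong to the same gene.

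Which of the genes still responded to EGF in the presence of the EGFR antibody was asked by comparing EGF with cetuximab against cetuximab alone, in MKN1 libraries that the rule did not use. Here and below, log2 fold changes with standard errors (SE) are on the TMM scale of edgeR, p-values come from edgeR's quasi-likelihood test with Benjamini-Hochberg adjustment over all genes tested in the line, and a gene is called regulated when its adjusted p is below 0.05 and its log2 fold change is past 1 in size. At 4 h, 17 of 45 genes were regulated higher and 0 lower, where 1.4% of 19815 genes tested were regulated higher and 0.772% lower. By adjusted p alone, 36 of 45 rose and 0 fell, against 5.95% of all genes that rose, and the median log2 fold change was 0.89. Of the 128 sustained genes, 100 were regulated higher, with a median of 1.44.

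Transcription and chromatin genes held 8 of the 17 regulated genes. EGR2 rose by 3.21 on the log2 scale (SE 0.53, adjusted p 4.5e-05), EGR3 by 2.92 (SE 0.42, adjusted p 5.6e-06) and EGR4 by 2.18 (SE 0.27, adjusted p 2.8e-07). The cetuximab libraries held only 4, 13 and 8 counts of EGR2, so the size of its rise rests on few reads. In the single libraries, EGR3 had 1.04, 1.11 and 1.24 CPM with cetuximab and 6.27, 5.96 and 11.4 CPM with both, which do not overlap. BHLHE40 (1.70), KLF6 (1.29, a Krüppel-like factor), RFX8 (1.25), KDM6B (1.22, a histone H3 lysine demethylase) and NR5A2 (1.19, a nuclear receptor) were also regulated higher. TBX3 rose by 0.78 and stayed under the fold limit, and KLF7 had 0.60 (adjusted p 0.093).

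Among the 6 inhibitors, the Sprouty gene SPRY2, a feedback inhibitor of receptor tyrosine kinase signalling, rose by 1.65 (SE 0.15, adjusted p 4.8e-10). Its libraries had 6.72, 9.84 and 7.03 CPM with cetuximab and 21.9, 22.03 and 23.9 CPM with EGF added. DUSP10, a phosphatase of p38 and JNK (1.54), the pseudokinase gene TRIB1 (1.39) and CDKN1A (1.31) were regulated higher too, and GEM rose by 0.49. The Notch inhibitor gene NRARP had -0.15 (adjusted p 0.65).

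Ligand, receptor and guidance genes gave 1 regulated gene of 6, CCL2, which rose by 1.94 (SE 0.30, adjusted p 2.1e-05). WNT9A, a Wnt ligand (0.87), SEMA4B, a semaphorin (0.82), and IL6R, the interleukin-6 receptor (0.53), rose by adjusted p alone. CD274, which encodes the immune checkpoint ligand PD-L1, had a log2 fold change of 1.46 with an SE of 0.55 and missed the threshold (adjusted p 0.089). Its level was low, with 0.753, 0.984 and 0.461 CPM with cetuximab and 2.42, 2.29 and 0.816 CPM with both, and replicate 3 was the lowest in each group. NTNG1, a netrin-G guidance gene, had 0.88 (adjusted p 0.26).

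No kinase or GTPase regulator gene passed the fold limit, but ARHGAP31, a regulator of Rac and Cdc42 (0.94), PTK2B, the focal adhesion kinase relative Pyk2 (0.84), PRKCD, protein kinase C delta (0.78), and AATK (0.56) rose by adjusted p. MAST4 had -0.33 (adjusted p 0.29). Of the enzyme genes, PRSS22 (1.70, SE 0.52, adjusted p 0.028) and the phosphatase gene ACP7 (1.09) were regulated higher, while HAS3, a hyaluronan synthase (0.95), PFKFB4, a regulator of glycolysis (0.88), and AGPAT4 (0.69) rose under the fold limit. Adhesion, tetraspan and channel genes had 0 of 6 regulated, although the potassium channel gene KCNT1 (0.98), the cation channel gene TRPV3 (0.77) and TM4SF1 (0.68) rose. DSC2 had 0.69 (adjusted p 0.43), TMC6 0.55 (adjusted p 0.085), TMC8 0.42 (adjusted p 0.43) and the serpin gene SERPINA12 0.91 (adjusted p 0.41). C6orf141 (1.62) and KIAA1551 (1.32) were regulated higher among the other genes, of which all 6 rose by adjusted p.

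At 24 h, the same comparison gave 1 of 45 genes regulated higher and 4 lower, where 2.94% of all genes tested were regulated higher and 10.4% lower. By adjusted p alone, 6 rose against 22.6% of all genes and 14 fell against 25% of all genes. The median log2 fold change was -0.03, and it was -0.24, with 14 genes above 0 and 31 below, under scaling by library size alone, which moved the median of all genes by -0.20. The sustained genes had 66 of 128 regulated higher and 1 lower, with a median of 1.02. EGR3 was the only member regulated higher, with a rise of 1.77 (SE 0.46, adjusted p 0.0021), and it had 0.560, 0.528 and 0.829 CPM with cetuximab and 1.80, 1.84 and 2.02 CPM with both.

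MAST4 fell by 2.02 (SE 0.18, adjusted p 1.2e-10), and its libraries had 46.3, 52.5 and 58.0 CPM with cetuximab and 9.35, 11.6 and 12.7 CPM with EGF and cetuximab at 24 h. TRPV3 (-1.59), DSC2 (-1.504) and TRIML2 (-1.44, SE 0.14, adjusted p 7.3e-10) were also regulated lower. For TRIML2, the libraries had 20.3, 24.9 and 22.9 CPM with cetuximab against 5.36, 7.62 and 8.90 CPM with both. All 4 genes had been higher with EGF at 4 h, by the rule, and MAST4 without any treatment went from 9.02, 7.44 and 9.61 CPM at 4 h to 33.3, 25.5 and 21.0 CPM at 24 h. The 6 genes that rose by adjusted p at 24 h were EGR3, EGR4, BHLHE40, SPRY2, DUSP10 and KIAA1551.

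**Figure D3:**
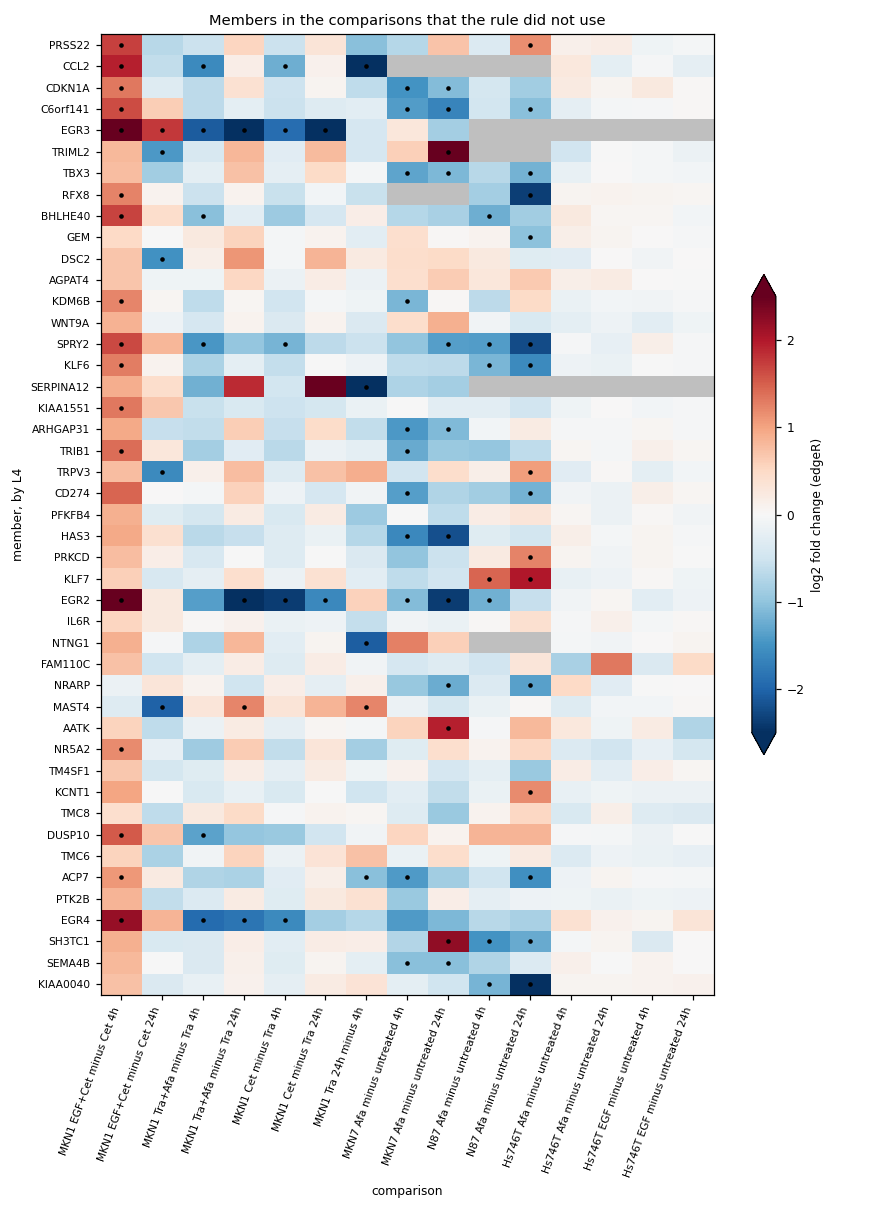
Fitted log2 fold change (colour) of the 45 members (rows) in the 15 comparisons shown (columns), with a black dot where a gene was regulated and grey where it was not tested. The column of EGF with cetuximab against cetuximab at 4 h holds 17 dots, all higher, and the 4 columns of Hs746T hold 0.

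The pathway background was read from gene lists rather than from the members. Of 16 MAPK feedback inhibitors tested, 12 were regulated higher by EGF with cetuximab against cetuximab at 4 h and 8 at 24 h, and of 25 immediate early transcription factors these were 12 and 9. SPRY2 and DUSP10 belong to the first list, EGR2, EGR3, EGR4 and KLF6 to the second, and CCL2 to the chemokine list, so the counts are not independent of the members. DUSP6, the ERK phosphatase, rose by 3.87 at 4 h and 3.47 at 24 h, SPRY4 by 4.11 and 3.39, and EGR1 by 3.16 and 1.64. FOSL1 rose by 2.57 and 3.22 and MYC by 2.33 and 1.68. EGFR ligands had 4 of 7 regulated higher at 4 h and 3 at 24 h, with 1 lower, and chemokines 3 of 10, CCL2 among them, and then 1. Over all genes, 1.4% were regulated higher at 4 h and 2.94% at 24 h. Other lists of the 14 had smaller parts regulated higher at 4 h than the first list. These were 1 of 12 NF-kB genes, 2 of 12 integrins and laminins, and 2 of 12 TGF-beta family genes. ETS factors had 3 of 9, cytokines 5 of 14, and the G1 cyclin and MYC network list, which holds CDKN1A, 1 of 13.

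The dependence of the genes on ErbB kinase activity without added EGF was examined in MKN1 by comparing trastuzumab with afatinib against trastuzumab, again in libraries that the rule did not use. At 4 h, 6 of 45 genes were regulated lower and 0 higher, where 0.495% of all genes were regulated lower and 0.136% higher. By adjusted p alone, 15 fell, against 2.18% of all genes, and 0 rose, and with a block for the replicate number 24 fell, against 6.6% of all genes. EGR3 fell by 2.08 (SE 0.43, adjusted p 0.0026), EGR4 by 1.93 (SE 0.28, adjusted p 2.2e-05) and CCL2 by 1.59 (SE 0.31, adjusted p 0.0013), followed by SPRY2 (-1.45), DUSP10 (-1.33) and BHLHE40 (-1.05). SPRY2 had 16.5, 18.5 and 15.5 CPM with trastuzumab and 5.88, 7.89 and 5.81 CPM with both, and EGR3 had 3.93, 4.07 and 4.22 CPM against 1.14, 1.09 and 0.817 CPM. All 15 genes that fell had risen by adjusted p when EGF was added to cetuximab at 4 h, which is 41.7% of the 36 that rose and 100% of the 15. Over all genes, 34.7% of those that rose and 94.9% of those that fell were shared.

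At 24 h, 1 member was regulated higher and 3 lower with trastuzumab and afatinib, where 3.2% of all genes were regulated higher and 1.02% lower. EGR3 fell by 3.01 (SE 0.48, adjusted p 1.9e-05), EGR2 by 2.77 (SE 0.51, adjusted p 0.0001) and EGR4 by 1.82 (SE 0.30, adjusted p 2.8e-05). EGR3 had 1.11, 2.35 and 6.55 CPM with trastuzumab, a wide spread, and 0.454, 0.302 and 0.616 CPM with both. MAST4 rose by 1.23 (SE 0.17, adjusted p 3.8e-06), from 31.9, 26.4 and 22.9 CPM to 61.1, 64.0 and 85.4 CPM. By adjusted p alone, 8 members rose, against 12.9% of all genes, and 8 fell, against 14.9% of all genes.

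Some of the members that fell in the EGF comparison at 24 h rose with afatinib, and some did the reverse. TRIML2, TBX3, ARHGAP31, TRPV3, MAST4 and TMC6 fell with EGF added to cetuximab and rose with afatinib added to trastuzumab, which is 42.9% of the 14 that fell and 75% of the 8 that rose. EGR3, EGR4, SPRY2, DUSP10 and KIAA1551 did the opposite, 83.3% of the 6 that rose and 62.5% of the 8 that fell. Opposite signs were found in 39 of 45 genes at 24 h and in 40 at 4 h, and the share over all genes was not computed. As a description across genes, which are not independent, Pearson's r between the fitted values was -0.69 at 24 h and -0.83 at 4 h. Its value over all genes was not computed either. Over all genes, the shared part was 61.4% and 92.9% for a rise with EGF and a fall with afatinib. For the other direction it was 47.1% and 91.0%. Of the member shares, only the 83.3% was above that of all genes, so the split is not shown to be particular to the members.

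**Figure D4:**
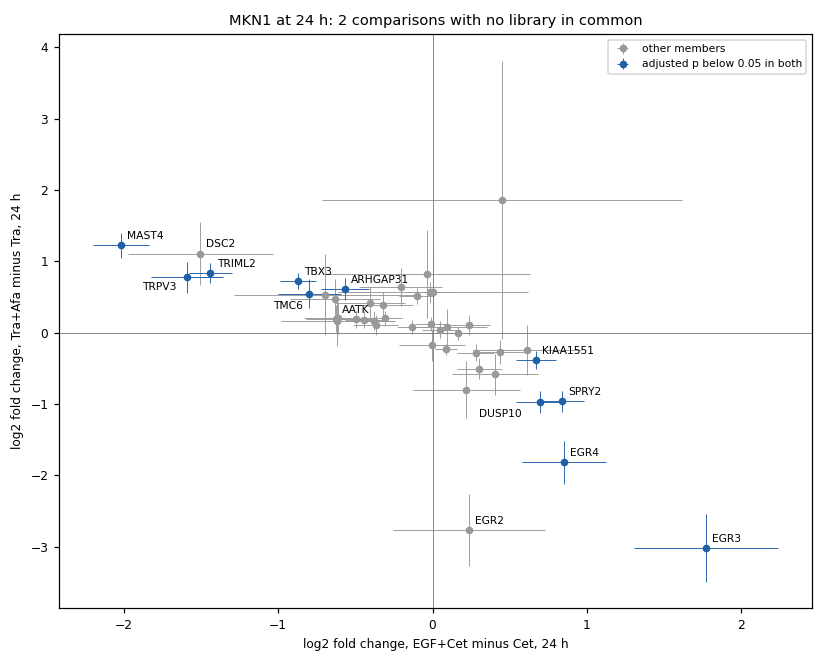
Log2 fold change at 24 h of EGF with cetuximab against cetuximab (x axis) and of trastuzumab with afatinib against trastuzumab (y axis) in MKN1, a point for each of the 45 members with SE bars. MAST4 lies at -2.02 and 1.23 and EGR3 at 1.77 and -3.01, and 39 of the 45 genes have opposite signs. The share of opposite signs over all genes was not computed.

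The 2 antibodies differ in their target, and cetuximab was compared with trastuzumab at their own doses of 1 and 5 µg/ml. At 4 h, 5 of 45 members were regulated lower with cetuximab and 0 higher, where 0.293% of all genes were regulated lower and 0.0353% higher, and 11 fell by adjusted p alone against 0.984% of all genes, or 23 against 3.6% of all genes with the replicate block. The 5 were EGR2, which fell by 2.38 (SE 0.55, adjusted p 0.018), EGR3 (-1.91), EGR4 (-1.59), CCL2 (-1.22) and SPRY2 (-1.16). For EGR2 the libraries held few counts, 4, 13 and 8 with cetuximab and 33, 52 and 38 with trastuzumab. The count of 5 became 2 without replicate 1 and 2 without replicate 2. At 24 h, EGR3 (-2.49, SE 0.45, adjusted p 0.00058) and EGR2 (-1.61, SE 0.45, adjusted p 0.016) were regulated lower and 0 members higher, where 0.308% of all genes were regulated lower and 1.1% higher. This count of 2 became 0 without replicate 3 and 4 without replicate 1. Relative to untreated cells, trastuzumab libraries at 4 h had a median fitted value of 0.01 over the members and cetuximab libraries one of -0.35, given without a test.

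How the genes moved with time in culture, with no EGF, was read from trastuzumab libraries at 24 h against 4 h. Time in culture and length of exposure to the antibody cannot be told apart in these libraries. Untreated libraries, given without a test, had a median change of -0.14 over the members, with a range from -4.36 to 2.14. Regulated lower were 4 of 45 and higher 1, where 1.95% of all genes were regulated lower and 5.31% higher. CCL2 fell by 2.56 (SE 0.33, adjusted p 2.8e-07), NTNG1 by 2.07 (SE 0.57, adjusted p 0.005) and ACP7 by 1.04, and MAST4 rose by 1.23 (SE 0.18, adjusted p 2.1e-06). SERPINA12, the serpin vaspin, had 34, 23 and 11 counts at 4 h and 0, 1 and 0 counts at 24 h, a ratio of summed counts per depth of 0.014 with a counting interval from 0.000349 to 0.0807. Scaling by library size alone gave 2 higher and 3 lower. The median change of the members was -0.25, whereas 77 of 128 sustained genes were regulated lower and their median was -1.16.

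Whether the afatinib effect over trastuzumab differed between the times was tested by the interaction in MKN1. It was positive and regulated in 5 of 45 genes and negative in 0, where 0.641% of all genes were regulated higher and 0.146% lower, and 14 were higher by adjusted p alone, against 1.73% of all genes. CCL2 had a difference of 1.75 (SE 0.46, adjusted p 0.026), NR5A2 1.53 (SE 0.38, adjusted p 0.017) and ARHGAP31 1.24 (SE 0.22, adjusted p 0.0019). The count was 2 without replicate 1 and 3 without replicate 3.

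In Hs746T, whose median level of the mesenchymal filament gene VIM was 1587 CPM against 545 CPM in MKN1, no EGF effect on the 43 members tested passed the test. At 4 h and at 24 h, 0 members and 0 of 18667 genes were regulated, so that the background was 0% higher and 0% lower. Unadjusted p-values below 0.05 were found for 364 genes and 0 members at 4 h and for 155 genes and 1 member at 24 h, AATK with a log2 fold change of -0.76, and DESeq2 called 0 genes regulated at each time. EGR3 and SERPINA12 were below the count filter in this line, and 11 members were below 1 CPM in untreated cells at 4 h, against 5 in MKN1.

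Afatinib in Hs746T likewise gave 0 regulated members and 0% of all genes higher or lower at both times with edgeR, in the fit without a term for the replicate number. Unadjusted p-values below 0.05 were found for 1371 genes and 4 members at 4 h and for 330 genes and 1 member at 24 h, and DESeq2 called 0 genes regulated. When the fit had a block for the replicate number, 3471 genes (18.6%) passed adjusted p at 4 h and 66 genes were regulated. Of the members, 10 passed adjusted p, none past the fold limit. BHLHE40 (0.24), CDKN1A (0.23), TM4SF1 (0.19) and GEM (0.14) rose in that fit, and MAST4 (-0.33), DSC2 (-0.30), TRPV3 (-0.30), C6orf141 (-0.23), TBX3 (-0.18) and KLF6 (-0.13) fell. At 24 h, 133 genes (0.712%) passed adjusted p in the blocked fit and 1 gene was regulated. The 2 members that passed were SPRY2 (-0.19) and KLF6 (-0.16), both under the fold limit.

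In MKN7, afatinib lowered members within 4 h. Of 43 tested, 11 were regulated lower and 0 higher, where 1.59% of 18483 genes were regulated lower and 1.81% higher, and 21 fell by adjusted p alone against 12.1% of all genes. HAS3 fell by 1.62 (SE 0.29, adjusted p 0.00033), CDKN1A by 1.49 (SE 0.36, adjusted p 0.0045) and ARHGAP31 by 1.44 (SE 0.18, adjusted p 6.3e-06). CDKN1A had 41.1, 41.4 and 68.2 CPM untreated and 19.4, 17.96 and 19.2 CPM with afatinib, with replicate 3 the highest of the untreated libraries. ACP7, C6orf141, CD274, TBX3, TRIB1, KDM6B, EGR2 and SEMA4B were regulated lower as well, from -1.42 to -1.05.

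At 24 h in MKN7, 9 members were regulated lower and 3 higher, where 3.25% of all genes were regulated lower and 10.3% higher. EGR2 fell by 2.38 (SE 0.38, adjusted p 2.2e-05), HAS3 by 2.20 (SE 0.32, adjusted p 7.4e-06) and C6orf141 by 1.66 (SE 0.49, adjusted p 0.0071). TRIML2 rose by 2.62 (SE 0.36, adjusted p 4.5e-06), from 3.20, 3.56 and 1.28 CPM to 17.6, 21.6 and 14.2 CPM. SH3TC1 rose by 2.22 (SE 0.20, adjusted p 3.2e-08), from 1.15, 1.36 and 1.20 CPM to 6.33, 6.78 and 5.63 CPM, and AATK by 1.94. The 12 regulated members became 7 without replicate 3. Between the times, the afatinib effect differed and was more positive at 24 h in 5 members, against 3.13% of all genes, and more negative in 0, against 1.55%.

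In NCI-N87, 6 of 40 members tested were regulated lower and 1 higher by afatinib at 4 h, where 1.22% of 19078 genes were regulated lower and 2.03% higher. By adjusted p alone, 14 fell against 9.1% of all genes. SH3TC1 fell by 1.495 (SE 0.18, adjusted p 3.6e-06), from 11.6, 14.97 and 9.24 CPM to 4.43, 5.36 and 3.56 CPM. SPRY2 fell by 1.40 (SE 0.19, adjusted p 1.2e-05), from 6.54, 8.80 and 5.15 CPM to 2.67, 3.07 and 2.40 CPM, and BHLHE40 by 1.23. KLF7, a Krüppel-like factor, rose by 1.45 (SE 0.15, adjusted p 6.2e-07). The 7 regulated members became 4 without replicate 2.

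At 24 h in NCI-N87, 11 members were regulated lower and 5 higher, where 11.5% of all genes were regulated lower and 18.1% higher. Under scaling by library size alone, which moved the median of all genes by 0.26, the split was 6 lower and 7 higher. KIAA0040 fell by 2.65 (SE 0.13, adjusted p 3.8e-13), from 61.7, 60.01 and 60.4 CPM to 12.5, 9.55 and 12.7 CPM, RFX8 by 2.36 (SE 0.48, adjusted p 0.00021) and SPRY2 by 2.25 (SE 0.20, adjusted p 2.2e-09). KLF7 rose by 1.995 (SE 0.15, adjusted p 3.6e-10), from 8.55, 6.47 and 5.71 CPM to 36.2, 32.6 and 30.3 CPM. PRSS22 rose by 1.16 (SE 0.10, adjusted p 1.1e-09), from 192, 180 and 155 CPM to 501, 468 and 440 CPM, levels far above those in MKN1. The afatinib effect differed between the times in 8 members, more positive at 24 h in 4, against 8.39% of all genes, and more negative in 4, against 6.61%, and the split was 6 and 1 under scaling by library size alone.

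**Figure D5:**
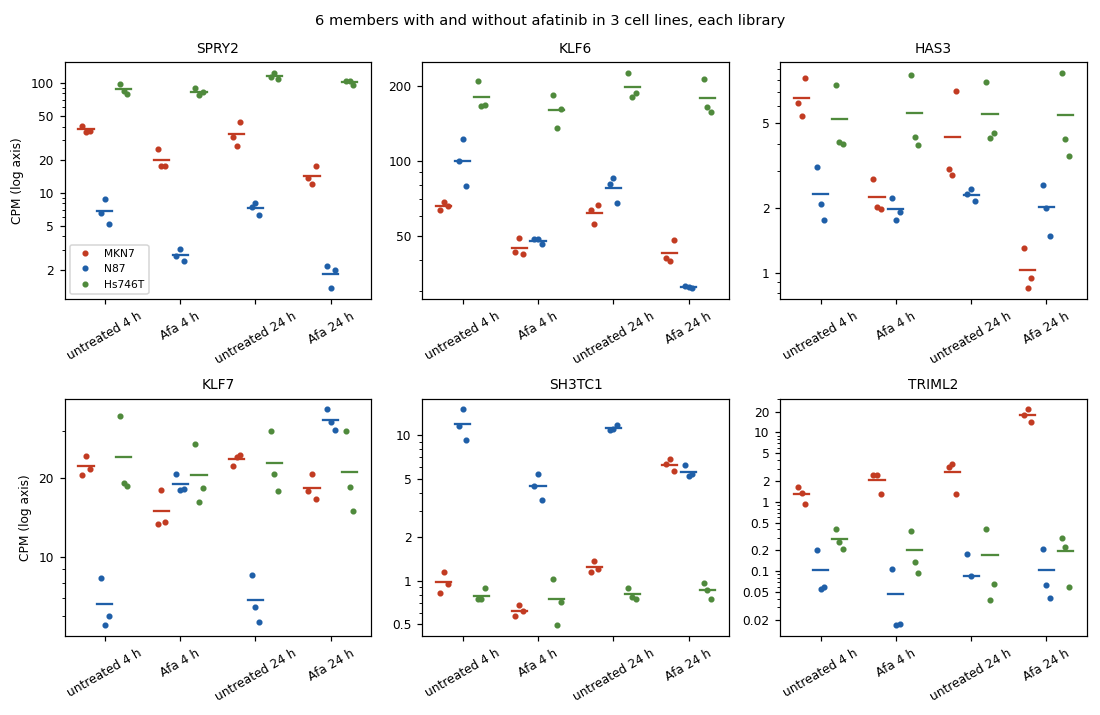
CPM (log axis) of SPRY2, KLF6, HAS3, KLF7, SH3TC1 and TRIML2 in untreated and afatinib-treated cells of MKN7, NCI-N87 and Hs746T at 4 h and 24 h, with a point for each library (libraries at 0 are not drawn). SPRY2 in NCI-N87 at 24 h goes from 6.27 to 8.11 CPM untreated to 1.35 to 2.15 CPM with afatinib, whereas KLF7 goes from 5.71 to 8.55 CPM to 30.3 to 36.2 CPM.

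Over the afatinib comparisons at 4 h in 3 lines, MKN7, NCI-N87 and MKN1 (over trastuzumab), BHLHE40, EGR2 and SPRY2 were regulated lower in 2 lines, as were 0.498% of all genes tested in the 3 lines, and no member was so in all 3, against 0.225% of these genes. By adjusted p alone, BHLHE40, KDM6B, KLF6, SEMA4B, SPRY2 and TRIB1 fell in all 3, another 9 genes in 2 and 14 in 1. Of the 16473 genes tested in all 3 lines, 1.21% fell in 3 lines, 6.34% in 2 and 9.63% in 1, and of the 39 members among them 6 fell in 3 lines, 9 in 2 and 12 in 1. DUSP10, KLF7 and WNT9A passed in opposite directions in different lines, as did 0.237% of all genes. KLF7 had 20.5, 24.1 and 21.5 CPM untreated and 13.3, 17.96 and 13.6 CPM with afatinib in MKN7 at 4 h, where the groups do not overlap, opposite to its rise in NCI-N87. At 24 h, KIAA1551, KLF6, NRARP and SPRY2 fell in all 3 lines, 4 of 39 members where 11.7% of all genes did so. In opposite directions 12 of the 39 members passed, against 4.65% of all genes. Among the members, only SPRY2 and KLF6 thus fell in all 3 lines at both times, and the share of all genes that did so was not computed. CCL2 and RFX8 in MKN7, and CCL2, EGR3, TRIML2, SERPINA12 and NTNG1 in NCI-N87, were below the count filter and were not tested.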

How the data were processed

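RNA-seq libraries of 132 samples were analysed from the raw counts per Ensembl gene that the authors deposited, 1 table per sample. The submitters' processing notes name Trim Galore, STAR and hg38, and the counting tool is not given in the sources used here. Identifiers were named with GENCODE 29, and 8404 identifiers without an entry held 0.0422% of counts. CPM was computed on library totals. For each line, edgeR 4.0.16 (R 4.3.3) was fitted to all its libraries with a coefficient for each treatment and time, TMM scaling, filterByExpr (minimum count 10, minimum total 15) and the quasi-likelihood test, after being tested on simulated data. Contrasts with EGF or untreated libraries of MKN1 were not tested. Members and gene lists were chosen with earlier results of these data known, and roles were assigned after the members. The genes given per library are the 12 with the largest L at 4 h, and at most 3 regulated members in each direction per comparison are given with full statistics. Replicate numbers come from the labels. The deviations of same-numbered samples correlated above 0.1 in every pair in Hs746T, MKN7 and NCI-N87 (lowest r 0.23) and in MKN1 at 4 h (lowest r 0.58), so the numbers pair those samples. The main fits had no term for the replicate number, and results with that term are named as the replicate block. Alternatives were library-size scaling, DESeq2 1.42.0, no filter, the replicate block, fits of the compared groups alone and leaving out replicates. Promoter windows are RefSeq's. Intervals cover counting error only.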

Additional observations from a re-analysis of the deposited data

Results flagged for a closer look

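Tests of the afatinib effect at 24 h minus that at 4 h (edgeR's quasi-likelihood interaction, adjusted p below 0.05 and log2 difference past 1) singled out 18 member and line pairs. In MKN1, over trastuzumab, the difference was 1.75 for CCL2, 1.53 for NR5A2, 1.24 for ARHGAP31, 1.23 for TRIML2 and 1.04 for CDKN1A. Of all genes, 0.641% were regulated higher there and 0.146% lower. Of these 5 members, 1 stayed regulated without replicate 1, 4 without replicate 2 and 2 without replicate 3. In MKN7 the difference was 2.95 for SH3TC1, 2.03 for TRIML2, 1.42 for PRSS22, 1.17 for KDM6B and 1.09 for PTK2B, where 3.13% of all genes were regulated higher and 1.55% lower. In NCI-N87 it was 1.505 for PRSS22, 1.34 for KCNT1, 1.12 for KDM6B and 1.01 for PRKCD, and -1.48 for KIAA0040, -1.12 for GEM, -1.03 for ACP7 and -1.003 for NRARP. These are 4 higher and 4 lower of 40 members tested, near the 8.39% of all genes higher and 6.61% lower. The protease gene PRSS22 and the demethylase gene KDM6B were found in both MKN7 and NCI-N87 and TRIML2 in MKN1 and MKN7. The share of all genes found in 2 lines was not computed.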

How the results depend on the processing

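Over the comparisons tested, 134 of 144 alternative counts of regulated members stayed within 1.5 times the value reported. Of the 432 alternative values of single genes, 402 kept their side of the threshold, 30 lost the call and 0 changed sign. For cetuximab against trastuzumab at 4 h, the 5 members became 3 when only the compared groups were fitted and 2 to 4 when a replicate was left out, and at 24 h the 2 became 0 to 4. Leaving out a replicate gave 7 to 14 members in place of 12 for afatinib in MKN7 at 24 h, 4 to 7 in place of 7 in NCI-N87 at 4 h, 3 to 7 in place of 5 for trastuzumab at 24 h against 4 h in MKN1, and 2 to 4 in place of 5 for the MKN1 interaction. The cause was not tested beyond the smaller number of libraries.

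The replicate block (a term for the replicate number) moved no count of regulated members by over 1.5 times. The block gave 18 members in place of 17 for EGF with cetuximab against cetuximab in MKN1 at 4 h, and 7 in place of 5 for the MKN7 interaction. In MKN1 at 24 h, the deviations of same-numbered samples had a mean r of 0.41 and were above 0.1 in 53 of 63 pairs (lowest r -0.27), so the pairing used at 4 h was not taken to hold there. The block gave, by adjusted p alone, 17 members higher in place of 8 for trastuzumab with afatinib against trastuzumab at 24 h, where 21.9% of all genes were higher, and 25 in place of 14 for the MKN1 interaction, where 8.33% were. For afatinib at 4 h, it gave 25 members lower in place of 21 in MKN7, where 20.7% of all genes were lower. In NCI-N87 it gave 20 lower in place of 14, where 16.6% were. The MKN7 interaction had 13 higher in place of 7 and 7 lower in place of 1, where 17.6% and 19.1% of all genes were. The rule itself gave 39 genes with TMM scaling, 56 with a pseudocount of 0.25 and 37 with one of 3, and 40 to 48 without a replicate. In every one of these settings, 17 of the 45 genes remained. Under scaling by library size alone, the median of all genes moved by -0.12 for EGF with cetuximab against cetuximab at 4 h, by 0.15 for trastuzumab with afatinib against trastuzumab at 24 h (2 members higher and 3 lower in place of 1 and 3) and by 0.11 for afatinib in MKN7 at 24 h. Motif shares with the 250 bases before the start alone were 6.67% for AP-1, 13.3% for EGR, 3.33% for the CArG box, 15% for NF-kB and 0% for the cyclic AMP element. Depth limited genes near 3 counts, such as SERPINA12 at 24 h.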
